A study of Mus musculus with 10 samples.

Results

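The nuclear genes of respiratory complexes II to V were followed in subcutaneous (inguinal) white fat of old mice. They were chosen by name and not by level: every protein-coding row of the deposited expression table for the 4 subunits of succinate dehydrogenase, the Uqc genes and Cyc1 of complex III, cytochrome c (Cycs), the Cox4 to Cox8 genes of complex IV and the Atp5 genes of ATP synthase, leaving out Cox7a1 and Cox8b. This gave 48 genes of the 31285 in the table: 4 of complex II, 9 subunits and 3 assembly factors of complex III, 1 cytochrome c, 14 of complex IV and 17 of complex V. RNA was sequenced from 5 samples labelled GHR Knockdown, from mice called Ad-GHRKO, which by the series title lack the growth hormone receptor gene (Ghr) in adipose tissue, and from 5 samples of Flox mice. All mice were 20 months old and ate regular chow. The sources used here give no Cre line, sex or strain. They also do not state that each sample is a separate animal, so the tests reflect sample-to-sample spread, which may be technical. Values are FPKM, fragments scaled to gene length and library size. The length was that of all annotated exons of a gene, so levels of different genes compare only roughly.

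Complex II oxidises succinate to fumarate and passes the electrons to ubiquinone. Complex III hands them on to cytochrome c, complex IV uses them to reduce oxygen to water, and complex V, the ATP synthase, makes ATP from the proton gradient that complexes III and IV help to build. Complex II is encoded wholly in the nucleus, while the catalytic subunits of complex IV and one subunit of complex III come from the mitochondrial genome, so nuclear and mitochondrial transcripts supply one assembly. White adipocytes hold fewer mitochondria than brown adipocytes or skeletal muscle, and muscle makes its own isoforms of several complex IV subunits.

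Ghr, the targeted gene, was at 15.1, 20.1, 13.0, 16.7 and 17.9 FPKM in Ad-GHRKO libraries 1 to 5, against 72.9, 129.8, 89.7, 80.9 and 94.1 FPKM in Flox libraries 1 to 5, with no overlap (log2 change -2.41, SE 0.17, limma adjusted p = 6.54e-05; exact two-sided permutation p = 0.00794, the smallest that 5 against 5 allow). Depth, recovered from the values, ranged from 14592985 to 19238488 reads a library. A list of 26 skeletal muscle genes held 18.6% of all reads in Ad-GHRKO 1, 7.37% in Flox 3 and 10.6% in Flox 5. These 3 are called muscle-rich here. The list held 0.241% in Ad-GHRKO 5 and at most 0.0186% in each of the remaining 6 libraries. The summed FPKM of 8 white adipocyte markers was lowest in Ad-GHRKO 1, at 3262, and lay between 7112 and 9271 in Ad-GHRKO 2 to 5, while Flox spanned 6365 to 9933. The summed FPKM of 6 macrophage markers ranged from 513 to 1810 in Ad-GHRKO, against 320.1 to 1081 in Flox. The 6 brown adipocyte markers, Cox7a1 and Cox8b among them, summed to 18.8 to 43.7 FPKM in Ad-GHRKO 2 to 5, against 65.2 to 181.9 FPKM in Flox 1, 2 and 4, and to 261.6, 148 and 253.7 FPKM in the muscle-rich Ad-GHRKO 1, Flox 3 and Flox 5. Cox8b alone made up 108, 86.8 and 46.5 FPKM of the sums in Flox 1, 2 and 4. Of the 3 tested, 1 was called lower (Cidea), where 1.42% of all genes tested fell, and 2 had an unadjusted p under 0.05 in that direction. The median log2 change of -2.02 was that of Cox8b (limma adjusted p = 0.176), while Cox7a1 was at 0.51 (adjusted p = 0.775). The remaining markers missed the filter of 1 FPKM in 5 libraries. The 8 immediate early and handling genes summed to 149 to 485 FPKM in Ad-GHRKO, against 68.5 to 130.4 in Flox. The part of these differences in the results on the respiratory genes was not tested beyond the fits without muscle-rich libraries and with a muscle score.

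Most of the respiratory genes had lower levels in Ad-GHRKO fat, with 7 past the test. All 47 genes that could be tested had a negative log2 change, where 44.3% of all 12785 genes tested did, and their median log2 change was -0.49, beside 0.04 over all genes. The ratio of mean FPKM ran from 0.531 for Uqcrq to 1.015 for Atp5g1, whose mean was not lower. After adjustment over all genes, 7 of the 47 fell and 0 rose, where 1.42% of all genes tested fell, 0.774% rose and 2.19% changed either way. The 7 were Cox5b, Cox4i1 and Cox6b1 of complex IV, Uqcrh, Uqcrq and the assembly factor Uqcc3 of complex III, and Atp5k of complex V. By limma voom on recovered reads 8 fell and 0 rose, where 170 of all 12782 genes in that fit fell and 101 rose. In 18 of the 47 every Ad-GHRKO library lay below every Flox library, which held for 3.35% of all genes, and 32 had an unadjusted p under 0.05 in the lower direction, as 8.49% of all genes did. Only Cox6a2, the muscle isoform of a complex IV subunit, missed the filter of 1 FPKM in 5 libraries. In bulk tissue, fewer cells rich in these transcripts and less of the transcripts per cell cannot be told apart.

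The count of calls changed when 1 library was left out, as did that over all genes, given here in parentheses as the share that fell. It was 27 of 47 without Ad-GHRKO 1 (3.18%). It was 0 without Ad-GHRKO 3 (0.587%), Flox 2 (0.641%) or Flox 4 (0.688%) in turn. It was 1 without Ad-GHRKO 2 (1.08%), Ad-GHRKO 4 (0.806%), Ad-GHRKO 5 (0.657%) or Flox 1 (0.993%), 2 without Flox 5 (0.923%) and 5 without Flox 3 (0.79%). The median log2 change stayed between -0.58 and -0.44 in these 10 fits. Without the 3 muscle-rich libraries, 21 of the 47 fell, all 7 among them, where 3.12% of all genes did. In those 7 libraries 37 of the 47 had the groups apart, where 11.2% of all genes did, and the median log2 change was -0.59. Leaving out Ad-GHRKO 5 as well left 3 libraries a genotype and 14 genes that fell, where 2.45% of all genes did. Of the 7, 5 were among these 14, while Uqcrq and Atp5k were not (limma adjusted p = 0.0683 and 0.0528). With a muscle score as covariate 18 fell (4.03% of all genes), and with array weights 28 (5.41%). With a block on replicate number 0 fell (0.469% of all genes), and 1 fell with median ratio scaling (2.39%), with TPM rescaling (0.727%) and with no filter (0.259%). TPM rescaling moved the median of all genes to 0.15 and the calls over all genes to 93 lower and 141 higher, beside 181 and 99 in FPKM, and left 44 of the 47 respiratory genes negative.

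**Figure D1:**
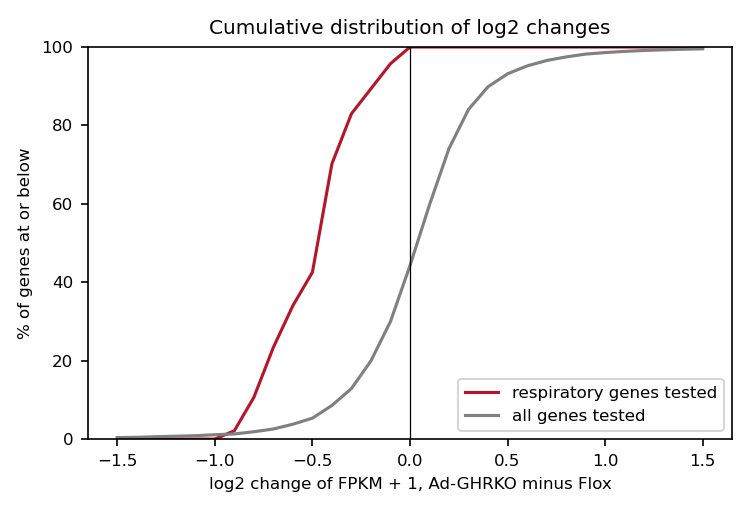
Cumulative percent of genes (vertical axis) at or below each log2 change of FPKM + 1, Ad-GHRKO minus Flox (horizontal axis), for the 47 respiratory genes tested (red) and all 12785 genes tested (grey). At -0.4 the red curve has reached 70.2% and the grey curve 8.58%.

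By library, the genes took 0.862%, 0.739%, 0.607%, 0.765% and 0.555% of the reads of Ad-GHRKO 1 to 5, against 0.944%, 1.09%, 0.901%, 0.923% and 1.11% of the reads of Flox 1 to 5. Every Ad-GHRKO library lay below every Flox library, with the muscle-rich Ad-GHRKO 1 closest. Set against the mean of Flox 1, 2 and 4, the libraries without muscle-rich tissue in Flox, 45 to 47 of the 47 tested genes were lower in each of Ad-GHRKO 2 to 5, and 31 of 47 were lower in Ad-GHRKO 1. The median gene was 0.46 to 0.77 log2 units below that mean in Ad-GHRKO 2 to 5 and 0.23 below it in Ad-GHRKO 1. In Flox 1 to 5, of which 1, 2 and 4 make up that mean, 34, 6, 35, 34 and 18 genes were lower. The median gene of these libraries was at -0.09, 0.15, -0.18, -0.07 and 0.11. By both measures Ad-GHRKO 1 was close to the muscle-rich Flox 3.

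**Figure D2:**
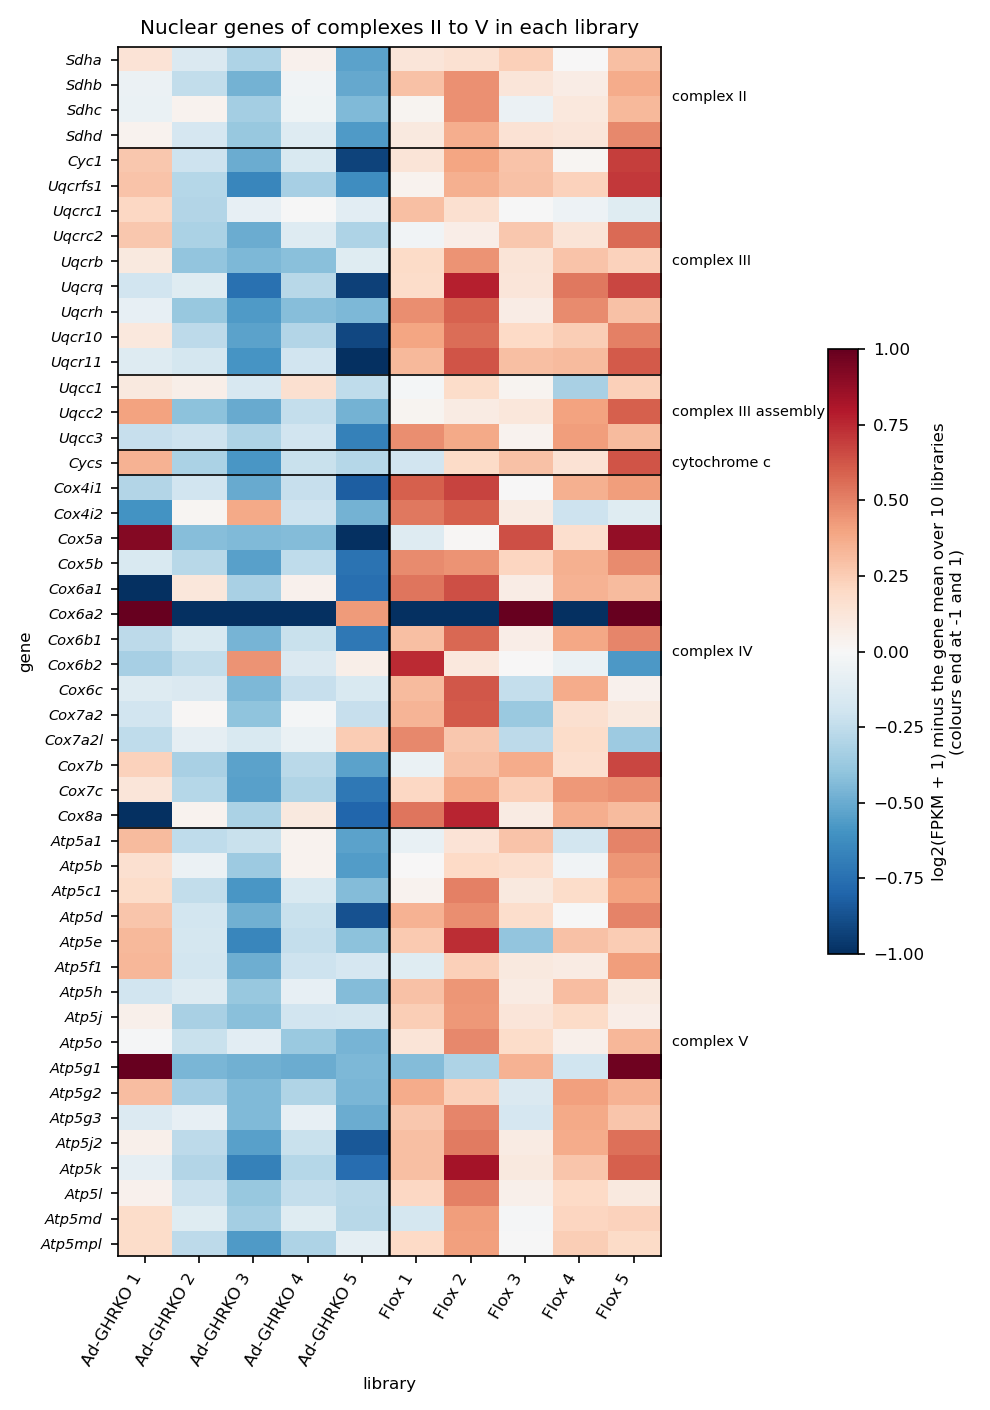
Each row is a gene, grouped by complex, and each column a library, with Ad-GHRKO on the left; colour gives log2(FPKM + 1) minus the gene's mean over the 10 libraries, with colours ending at -1 and 1. Ad-GHRKO 2 to 5 are mostly blue, while Cox6a2, Cox5a and Atp5g1 are red in the muscle-rich libraries Ad-GHRKO 1 and Flox 5.

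Promoter sequence shows what the called genes have, and do not have, upstream. RefSeq start sites on GRCm38.p6 gave 36 of the 48 genes a window of 250 bases before to 50 after the start, 5 of the 7 called genes among them. The 250 bases before the start are printed for 4 of these, in lower case, with the letters of the NRF1 motif (GCGCA, any base, GCGC) and of the ETS motif that GABPA binds (CCGGAAG) in capitals, either strand; NRF1 and GABPA are known activators of respiratory genes. Atp5k is shown for its NRF1 match (chr5:108434400-108434649, minus strand), Cox6b1 (chr7:30626115-30626364, minus strand) and Uqcrh (chr4:116075071-116075320, minus strand) for an ETS match, and Cox5b (chr1:36691237-36691486, plus strand) as a called gene with neither.
Atp5k: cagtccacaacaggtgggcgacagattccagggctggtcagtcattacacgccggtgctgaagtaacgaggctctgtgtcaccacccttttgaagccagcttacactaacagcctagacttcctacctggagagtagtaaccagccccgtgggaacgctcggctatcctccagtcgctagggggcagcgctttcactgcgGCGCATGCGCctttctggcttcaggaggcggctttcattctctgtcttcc
Cox6b1: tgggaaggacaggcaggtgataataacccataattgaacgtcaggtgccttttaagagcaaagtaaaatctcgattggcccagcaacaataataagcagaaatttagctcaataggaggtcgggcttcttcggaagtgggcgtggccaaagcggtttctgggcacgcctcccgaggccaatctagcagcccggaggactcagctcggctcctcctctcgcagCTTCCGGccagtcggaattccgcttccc
Uqcrh: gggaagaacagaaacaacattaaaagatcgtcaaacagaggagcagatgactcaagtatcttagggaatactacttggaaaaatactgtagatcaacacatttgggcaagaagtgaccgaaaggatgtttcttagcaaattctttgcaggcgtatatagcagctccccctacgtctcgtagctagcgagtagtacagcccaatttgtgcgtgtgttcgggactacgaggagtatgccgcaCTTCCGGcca
Cox5b: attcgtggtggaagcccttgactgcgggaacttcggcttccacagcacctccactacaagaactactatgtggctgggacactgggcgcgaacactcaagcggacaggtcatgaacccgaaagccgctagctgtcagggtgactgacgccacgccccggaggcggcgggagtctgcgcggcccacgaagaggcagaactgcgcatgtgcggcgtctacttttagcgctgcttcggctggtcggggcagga
The NRF1 letters of Atp5k lie 50 to 41 bases before the start, and read the same on both strands. Past the printed bases, the Atp5k window also held ETS letters 13 to 19 bases after the start. It held the letters AAGGTCA of the ERR element at 24 to 30. Uqcc3, the called gene with a window that is not printed, had neither NRF1 nor ETS letters. It held the AAGGTCA letters 137 to 131 bases before the start. The ETS letters of Cox6b1 lie 28 to 22 bases before the start and those of Uqcrh 10 to 4, both on the opposite strand. Over the 36 genes, the NRF1 letters occurred in the 300 bases of 11 (30.6%), the ETS letters in 13 (36.1%) and the letters AAGGTCA of the ERR element in 6 (16.7%). The same letters were in 11.5%, 20.3% and 3.98% of the 9116 tested genes with a window, and in 4.6%, 8.86% and 4.72% of all 32851 windows. The GC box GGGCGG was in 44.4% of the respiratory genes, 69.1% of tested genes and 35.7% of all windows. CCAAT was in 58.3%, 42.4% and 37.4%, AAGATGG of YY1 in 11.1%, 8.61% and 6.34%, and TGACGTCA of the cyclic AMP response element in 5.56%, 3.42% and 1.79%. Only exact letters were counted, and a match describes letters and not a bound site.

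Complex II had no call. Its ratio of summed FPKM, Ad-GHRKO over Flox, was the highest of the 4 complexes, at 0.754, beside 0.739 for complex V. The difference between complexes was not tested. Sdha (ENSMUSG00000021577), the flavoprotein that oxidises succinate, was at 138 ± 25.2 FPKM in Ad-GHRKO and 171 ± 13.4 FPKM in Flox (SD, n = 5 each), and the groups overlapped (limma adjusted p = 0.336). Sdhb, the iron-sulfur subunit, was at 65.5, 57.2, 48.8, 66.5 and 47.6 FPKM in Ad-GHRKO 1 to 5, against 83.7, 93.7, 74.1, 71.9 and 88.7 FPKM in Flox 1 to 5. Every Ad-GHRKO library was below every Flox library, but the log2 change of -0.53 (SE 0.14) did not pass (adjusted p = 0.0921). Of the membrane anchors, Sdhd was at 108 ± 17.2 and 151 ± 18.4 FPKM in Ad-GHRKO and Flox (adjusted p = 0.139, groups apart), and Sdhc at 43.1 ± 6.16 and 55.0 ± 8.43 FPKM (adjusted p = 0.279). The 4 log2 changes ran from -0.53 to -0.33, and none passed without the 3 muscle-rich libraries either.

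Complex III held 2 calls among 9 subunits, both small ones, where 1.42% of all genes tested fell. Uqcrh, the hinge subunit that lies near cytochrome c1 (ENSMUSG00000063882, chromosome 4, 116066965 to 116075071, minus strand, GRCm38), was at 92.4, 74.8, 65.6, 72.6 and 71.2 FPKM in Ad-GHRKO 1 to 5, against 135, 147, 103, 136 and 120.1 FPKM in Flox 1 to 5. The highest Ad-GHRKO library, the muscle-rich one, stayed below the lowest Flox library, also muscle-rich. Uqcrh fell by 0.76 on the log2 scale (SE 0.15, adjusted p = 0.0246). Uqcrq, a small subunit at the ubiquinone side (ENSMUSG00000044894, chromosome 11, 53427922 to 53430831, minus strand), was at 65.7, 69.1, 44.4, 62.0 and 38.9 FPKM in Ad-GHRKO 1 to 5, against 85.8, 129.9, 82.0, 109 and 120.1 FPKM in Flox 1 to 5. The groups did not overlap, and Uqcrq fell by 0.91 (SE 0.20, adjusted p = 0.0446), the largest change of the 47 genes.

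The other 3 small subunits of complex III had negative log2 changes that did not pass with all libraries. Uqcr11 was at 128 ± 32.5 FPKM in Ad-GHRKO and 229 ± 27.5 FPKM in Flox, with a log2 change of -0.87 and an adjusted p of 0.0503 (limma), and it passed by voom (0.0454) and with a filter of 5 FPKM (0.0439). Uqcr10 was at 146 ± 37.2 and 242 ± 26.4 FPKM (adjusted p = 0.0675) and Uqcrb at 40.7 ± 7.16 and 58.0 ± 5.13 FPKM (log2 change -0.51, adjusted p = 0.0891). Without the 3 muscle-rich libraries both passed (limma adjusted p = 0.0361 for Uqcr10 and 0.0303 for Uqcrb). Uqcr11 did not pass in that fit (limma adjusted p = 0.0592). In all 5 small subunits the groups were apart, which held for 3.35% of all genes, with a median log2 change of -0.76. The catalytic pair, Cyc1 (cytochrome c1) and Uqcrfs1 (the Rieske iron-sulfur protein), differed by -0.61 and -0.65 on the log2 scale (adjusted p = 0.194 and 0.131), but their groups overlapped through Ad-GHRKO 1, at 117 and 119 FPKM. The core proteins Uqcrc1 and Uqcrc2, which face the matrix, differed by -0.11 and -0.39 (adjusted p = 0.727 and 0.283). Differences between subunits of one complex were not tested.

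Of the 3 assembly factors of complex III, 1 fell, as did 1.42% of all genes tested. Uqcc3, which acts in early assembly around cytochrome b (ENSMUSG00000071654, chromosome 19, 8880014 to 8880923, minus strand), was at 36.8, 37.5, 34.8, 37.8 and 26.8 FPKM in Ad-GHRKO 1 to 5, against 60.1, 56.7, 44.6, 58.3 and 54.2 FPKM in Flox 1 to 5. The groups were apart, with a log2 change of -0.65 (SE 0.14, adjusted p = 0.0370). Uqcc2 was at 39.2 ± 11.9 and 54.6 ± 9.86 FPKM (adjusted p = 0.234). Its level was 60.1 FPKM in Ad-GHRKO 1 and between 31.6 and 38.3 FPKM in Ad-GHRKO 2 to 5. Uqcc1 was at 9.94 ± 1.31 FPKM in Ad-GHRKO and 10.3 ± 1.64 FPKM in Flox, with a log2 change of -0.04 (adjusted p = 0.923). Among the assembly factors outside the Uqc genes, Bcs1l, which inserts the Rieske protein, was at 6.53 ± 1.05 and 9.68 ± 1.27 FPKM (adjusted p = 0.0812), and Ttc19 at 4.80 ± 0.544 and 5.14 ± 0.541 FPKM (adjusted p = 0.778). Cycs, the electron carrier between complexes III and IV, was at 24.0 ± 6.48 and 32.4 ± 6.89 FPKM (adjusted p = 0.306).

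Complex IV held 3 calls among 13 subunits tested, where 1.42% of all genes tested fell. Cox5b, a nuclear subunit on the matrix side (ENSMUSG00000061518, chromosome 1, 36691449 to 36693681, plus strand), was at 84.6, 77.5, 64.0, 78.5 and 56.0 FPKM in Ad-GHRKO 1 to 5, against 130.5, 128, 109, 121 and 131 FPKM in Flox 1 to 5. The groups were apart, and Cox5b fell by 0.79 (SE 0.14, adjusted p = 0.0196), the smallest p of the 47 genes. Cox4i1, the general isoform of subunit 4 (ENSMUSG00000031818, chromosome 8, 120668222 to 120674207, plus strand), was at 209, 225, 181, 219 and 145 FPKM in Ad-GHRKO 1 to 5, against 390.3, 410.2, 257, 329.7 and 343 FPKM in Flox 1 to 5. The groups were apart, with the muscle-rich Flox 3 lowest in Flox, and Cox4i1 fell by 0.82 (SE 0.18, adjusted p = 0.0468). Cox6b1, which helps to hold the enzyme as a dimer (ENSMUSG00000036751, chromosome 7, 30616861 to 30626151, minus strand), was at 201, 216, 174, 205 and 146 FPKM in Ad-GHRKO 1 to 5, against 295, 359, 251.5, 315 and 337 FPKM in Flox 1 to 5. The groups were apart, and Cox6b1 fell by 0.73 (SE 0.16, adjusted p = 0.0470).

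**Figure D3:**
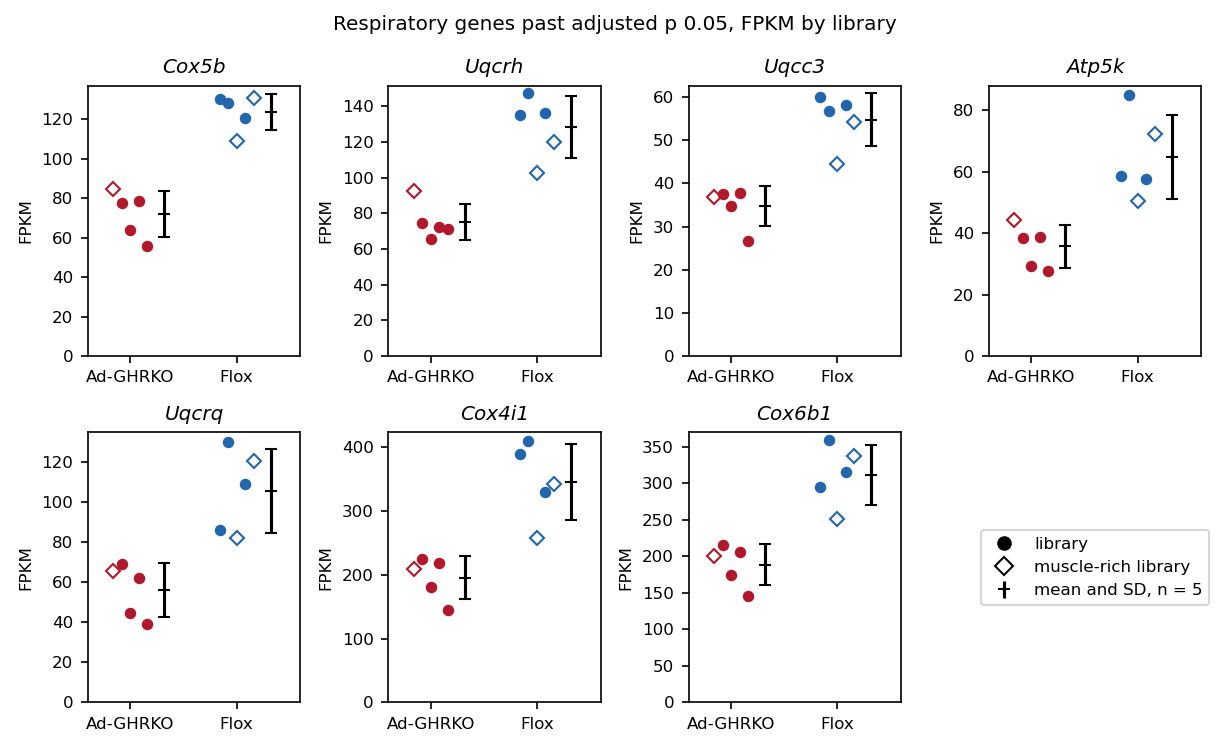
FPKM of the 7 genes past an adjusted p of 0.05 in each library (vertical axis, from 0), Ad-GHRKO left of Flox; open diamonds are the 3 muscle-rich libraries, and the bar gives mean and SD of 5 libraries. In each panel every Ad-GHRKO library lies below every Flox library.

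Cox8a and Cox6a1, the most abundant subunits of complex IV, had lower means in Ad-GHRKO but overlapping groups, and did not pass. Cox8a, the smallest subunit of the general form, was at 297, 646, 507, 675 and 364 FPKM in Ad-GHRKO 1 to 5, against 916, 1073, 667, 812 and 786 FPKM in Flox 1 to 5. Ad-GHRKO 1 was the lowest and Ad-GHRKO 4 overlapped Flox 3 (log2 change -0.82, adjusted p = 0.136). Cox6a1, the general isoform of subunit 6a, was at 371 ± 119 and 611 ± 92.4 FPKM in Ad-GHRKO and Flox (adjusted p = 0.136). With the muscle score as a covariate Cox8a and Cox6a1 passed as lower (limma adjusted p = 0.024 and 0.0262). Neither passed without the 3 muscle-rich libraries (limma adjusted p = 0.0914 and 0.0949). Cox7c was at 95.3 ± 21.8 and 152 ± 11.9 FPKM with the groups apart (adjusted p = 0.0576), Cox7b at 75.8 ± 18.3 and 112 ± 21.4 FPKM (adjusted p = 0.150) and Cox6c at 28.9 ± 2.60 and 40.3 ± 9.13 FPKM (adjusted p = 0.202). Cox5a, at 26.7 ± 17.2 and 38.2 ± 12.0 FPKM (adjusted p = 0.407), was high in the muscle-rich libraries of both genotypes, at 56.5 FPKM in Ad-GHRKO 1 and 46.5 and 55.0 FPKM in Flox 3 and 5.

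Other complex IV genes had small log2 changes or low levels. Cox7a2l, which joins complexes III and IV in supercomplexes, was at 74.3 ± 10.5 and 82.3 ± 20.2 FPKM in Ad-GHRKO and Flox (log2 change -0.12, adjusted p = 0.801), and Cox7a2 at 90.3 ± 10.6 and 116 ± 28.4 FPKM (adjusted p = 0.414). The minor isoforms were scarce: Cox4i2, best known from lung, was at 1.92 ± 0.822 and 2.71 ± 0.955 FPKM (adjusted p = 0.481), and Cox6b2, best known from testis, at 2.71 ± 0.858 and 3.04 ± 1.39 FPKM (adjusted p = 0.895). They rest on 15 to 54 and 32 to 93 reads a library, where Cox4i1 had 3274 to 11349.

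The muscle isoform marked the muscle-rich libraries. Cox6a2 was at 309, 0.536, 0.467, 0.0763 and 9.86 FPKM in Ad-GHRKO 1 to 5, against 0.371, 0.412, 174, 0.412 and 301 FPKM in Flox 1 to 5. It was high in the 3 muscle-rich libraries, 2 of them Flox, far lower in Ad-GHRKO 5, and under 1 FPKM in the remaining 6. Its share of Cox6a1 and Cox6a2 together was 57.1% in Ad-GHRKO 1, 34.3% in Flox 5 and 26.3% in Flox 3, 3.47% in Ad-GHRKO 5 and at most 0.126% in the 6 libraries with the fewest muscle reads. The summed level of both isoforms was 435 ± 105 FPKM in Ad-GHRKO and 706 ± 108 FPKM in Flox (SD, n = 5 each), close in ratio to Cox6a1 alone.

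**Figure D4:**
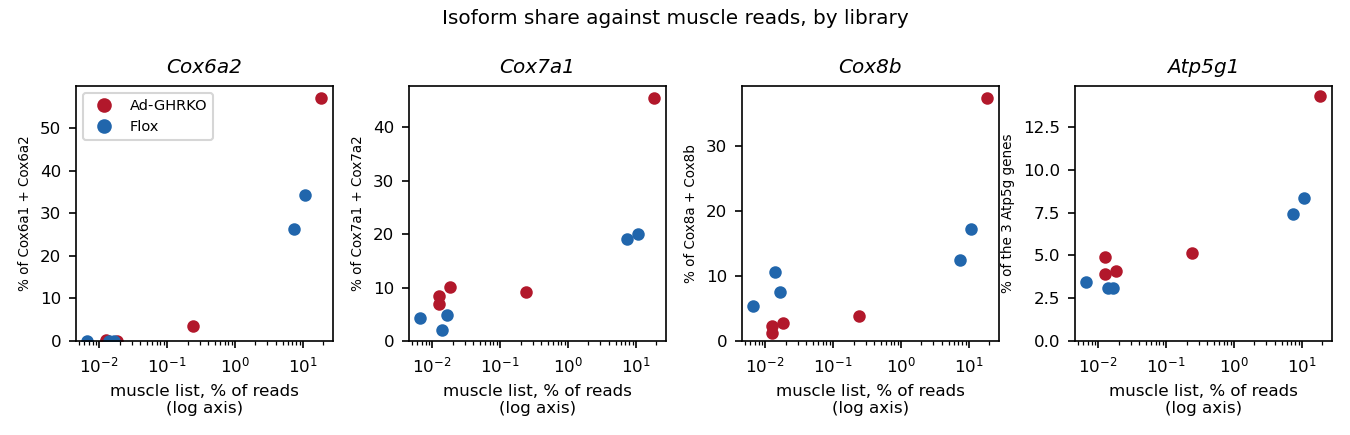
Each point is a library, Ad-GHRKO in red and Flox in blue; the horizontal log axis is the percent of reads on 26 skeletal muscle genes, and the vertical axis the percent that one isoform takes of its isoform group's FPKM. Cox6a2 reaches 57.1%, Cox7a1 45.5%, Cox8b 37.5% and Atp5g1 14.35% in Ad-GHRKO 1, the library with the most muscle reads.

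Complex V held 1 call among 17 genes, where 1.42% of all genes tested fell. Atp5k, the small membrane subunit e that takes part in dimerising ATP synthase (ENSMUSG00000050856, chromosome 5, 108433244 to 108434448, minus strand), was at 44.4, 38.4, 29.2, 38.7 and 27.5 FPKM in Ad-GHRKO 1 to 5, against 58.5, 85.0, 50.6, 57.5 and 72.2 FPKM in Flox 1 to 5. The groups were apart, and Atp5k fell by 0.84 (SE 0.18, adjusted p = 0.0385). Its neighbour Atp5j2, subunit f, was at 48.2, 38.8, 31.7, 39.7 and 25.5 FPKM in Ad-GHRKO 1 to 5, against 57.6, 67.0, 49.5, 60.5 and 68.6 FPKM in Flox 1 to 5. The groups were again apart, by little (log2 change -0.73, adjusted p = 0.0576). The other small membrane subunits Atp5l, Atp5md and Atp5mpl differed by -0.42, -0.27 and -0.42 on the log2 scale (adjusted p = 0.120, 0.407 and 0.188).

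In the catalytic head of ATP synthase 0 genes passed. Atp5b, the catalytic beta subunit and the most abundant of the Atp5 genes, was at 446.5, 385, 311, 411 and 272 FPKM in Ad-GHRKO 1 to 5, against 402, 461, 450.4, 389.8 and 544 FPKM in Flox 1 to 5. The groups overlapped, with Ad-GHRKO 1 and 4 inside the Flox range (log2 change -0.31, adjusted p = 0.454). Its partner Atp5a1, subunit alpha, had a log2 change of -0.27 (adjusted p = 0.531), and Atp5c1, the gamma subunit of the central stalk, was at 142 ± 29.8 and 198 ± 28.4 FPKM (adjusted p = 0.187). The median log2 change was -0.46 over the 5 head and central stalk genes, -0.44 over the 4 peripheral stalk genes and -0.42 over the 5 small membrane subunits. The groups were apart for 0, 3 and 3 of these genes, where 3.35% of all genes had them apart as lower. The difference between parts was not tested. Of the peripheral stalk genes, Atp5h was at 85.4 ± 9.14 and 120.1 ± 12.9 FPKM (adjusted p = 0.0923) and Atp5j at 30.8 ± 3.93 and 41.6 ± 4.34 FPKM (adjusted p = 0.123).

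The c ring turns with the proton flow, and its 3 genes encode the same mature protein with different import signals. Atp5g3 was at 124 ± 17.3 FPKM in Ad-GHRKO and 176 ± 28.3 FPKM in Flox (adjusted p = 0.157), and Atp5g2 at 39.2 ± 9.98 and 54.9 ± 8.04 FPKM (adjusted p = 0.188). Atp5g1 was at 31.8, 7.41, 7.26, 7.18 and 7.44 FPKM in Ad-GHRKO 1 to 5, against 7.55, 8.29, 13.7, 9.07 and 21.6 FPKM in Flox 1 to 5. It was high in the 3 muscle-rich libraries and, among the other 7, at most 7.44 FPKM in Ad-GHRKO and at least 7.55 FPKM in Flox. Atp5g3 made up 71.3% ± 6.59 of the 3 genes' FPKM in Ad-GHRKO and 72.3% ± 2.97 in Flox, and Atp5g2 22.2% ± 2.36 and 22.6% ± 1.58.

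**Figure D5:**
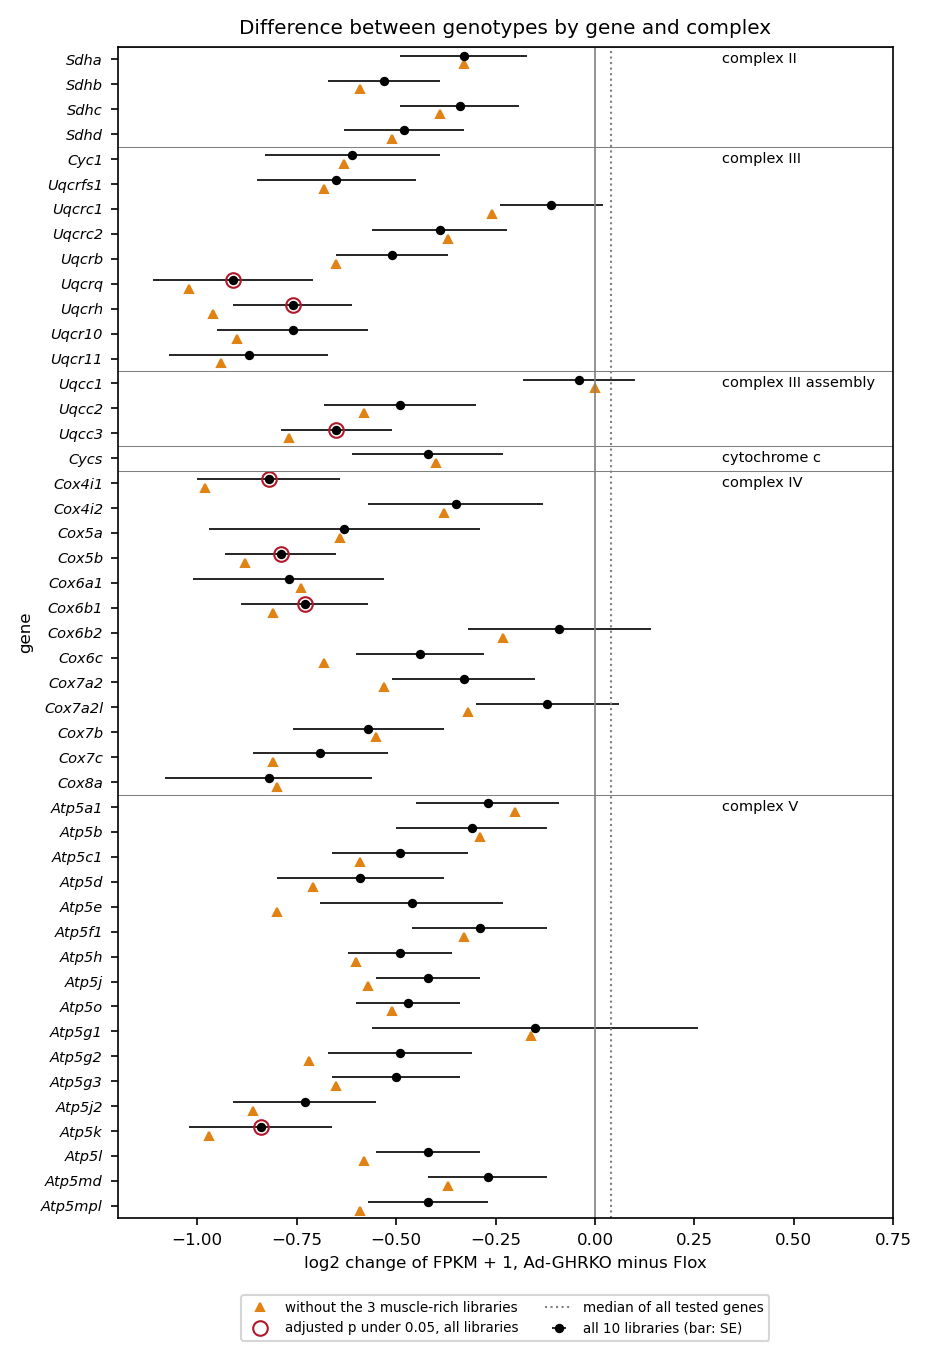
Log2 change of FPKM + 1, Ad-GHRKO minus Flox (horizontal axis), for the 47 tested genes by complex; black points with SE bars use all 10 libraries, triangles leave out the 3 muscle-rich libraries, and red rings mark an adjusted p under 0.05. All black points lie left of 0, and without the muscle-rich libraries Uqcc1 is at 0.00.

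Summed over each complex, FPKM was 346 ± 55.9 in Ad-GHRKO and 459 ± 42.4 in Flox for complex II, a ratio of 0.754. The ratio was 0.617 for complex III (675 ± 147 and 1095 ± 120.0 FPKM), 0.619 for complex IV (1785 ± 300.1 and 2885 ± 333 FPKM) and 0.739 for complex V (1154 ± 221 and 1561 ± 167 FPKM; SD, n = 5 each). Without the muscle-rich libraries the ratios were 0.739, 0.574, 0.595 and 0.690. Complexes III and IV had the lower ratios in both sets of libraries, and the difference between complexes was not tested.

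Within each genotype the muscle-rich libraries were higher for some genes and lower for others. Ad-GHRKO 1 was above the mean of Ad-GHRKO 2 to 4 for 41 of the 48 genes, and the mean of Flox 3 and 5 was above that of Flox 1, 2 and 4 for 20, all among the 41. The ratio was 2.63 in Ad-GHRKO and 1.70 in Flox for Cox5a, 4.37 and 2.13 for Atp5g1, and 1.67 and 1.34 for Cycs. It was below 1 for the general isoforms Cox8a (0.488 in Ad-GHRKO and 0.779 in Flox) and Cox6a1 (0.516 and 0.802).

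The mitochondrial genes that complete complexes III to V pointed the same way without a call. Of 5 tested, 0 passed in either direction by limma or voom, 4 had an unadjusted p under 0.05, all lower, 5 had a negative log2 change and the median was -0.68. Over all genes tested, 8.49% had such a p in the lower direction and 44.3% a negative log2 change. In each of the 5 the groups overlapped, also without the 3 muscle-rich libraries. Their summed FPKM ran from 8171 to 14580 in Ad-GHRKO, with Ad-GHRKO 5 highest, and from 11680 to 19540 in Flox. Co2 of complex IV (mt-Co2) was at 160.4 ± 36.2 FPKM in Ad-GHRKO and 261 ± 59.3 FPKM in Flox (adjusted p = 0.128), mt-Co3 at 101 ± 48.6 and 177 ± 49.9 FPKM (adjusted p = 0.183) and mt-Cytb of complex III at 3479 ± 803 and 5586 ± 1248 FPKM (adjusted p = 0.241). The most abundant of the 5, mt-Co1 of complex IV, was at 7059 ± 1999 and 9514 ± 1522 FPKM (log2 change -0.46, limma adjusted p = 0.485). Libraries were made from polyadenylated RNA, which mitochondrial transcripts enter through their short tails. Complex I, the entry point for NADH, was followed through 36 tested genes with Nduf subunit names. Of these, 1 was lower (Ndufv3, log2 change -0.71, limma adjusted p = 0.0468) and 0 were higher, where 1.42% of all genes fell. Their median was -0.50, and voom called 2 lower, where 170 of all 12782 genes in that fit fell. The 36 include Ndufa4 and Ndufa4l2, which are not complex I subunits. Without the 3 muscle-rich libraries 16 of the 36 fell, Ndufa4 among them, where 3.12% of all genes did, with a median of -0.63.

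Factors that build or regulate the complexes gave no further call by limma with all libraries. Without the 3 muscle-rich libraries Cox14 (adjusted p = 0.0186), Fmc1 (0.032), Ppargc1b (0.0475) and the carrier Slc25a5 (0.0353) were called lower. Over all genes tested, 3.12% fell in that fit. With all libraries 8.49% of all genes had an unadjusted p under 0.05 in the lower direction. Of 18 tested assembly factors of complex IV, 0 passed by limma or voom, 2 had an unadjusted p under 0.05, and the median log2 change was -0.20; the smallest p was that of Cox14, at 25.4 ± 4.82 FPKM in Ad-GHRKO and 38.4 ± 2.86 FPKM in Flox (adjusted p = 0.0539), followed by Pet100 (4.22 ± 0.414 and 5.73 ± 0.575 FPKM, adjusted p = 0.122). Of 6 assembly factors and inhibitors of complex V, 0 passed by limma or voom and 1 had an unadjusted p under 0.05 (median -0.15), with Fmc1 at 23.3 ± 5.61 and 35.9 ± 3.32 FPKM (adjusted p = 0.0794) and Atpaf2 at 27.3 ± 5.04 and 32.8 ± 3.74 FPKM (adjusted p = 0.418). Of 3 tested complex II assembly factors 0 passed by limma or voom or at an unadjusted p under 0.05, with Sdhaf2 at 6.21 ± 1.08 and 6.48 ± 0.912 FPKM (adjusted p = 0.883). Hccs, which attaches haem to cytochrome c, was at 3.05 ± 0.831 and 2.91 ± 0.380 FPKM (adjusted p = 0.933).

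The 11 tested regulators of mitochondrial biogenesis had a median log2 change of 0.02. By limma 0 were called and 1 had an unadjusted p under 0.05. By voom 1 was called lower, Ppargc1b, where 170 of all 12782 genes in that fit fell. Ppargc1b, a coactivator of ERR factors, was at 0.814 ± 0.229 FPKM in Ad-GHRKO and 1.95 ± 0.768 FPKM in Flox with the groups apart (limma adjusted p = 0.0629), and Esrra, the receptor ERR alpha, at 15.4 ± 5.25 and 20.1 ± 3.19 FPKM (adjusted p = 0.369). Nrf1 was at 2.30 ± 0.250 and 2.28 ± 0.392 FPKM (adjusted p = 0.965) and Gabpa at 5.94 ± 1.21 and 5.24 ± 0.799 FPKM (adjusted p = 0.698). Of 14 genes for other mitochondrial proteins 0 passed by limma or voom, and the median was -0.17. A negative log2 change was found in 12 of the 14, and in 44.3% of all genes tested. In this list 4 had an unadjusted p under 0.05, all lower, as 8.49% of all genes did. Slc25a5, the adenine nucleotide carrier that exchanges ATP for ADP, was at 114 ± 24.7 and 183 ± 13.5 FPKM with the groups apart (adjusted p = 0.0678), and Phb2, a prohibitin of the inner membrane, at 19.1 ± 1.81 and 24.4 ± 2.01 FPKM (adjusted p = 0.158). Cs (citrate synthase) was at 73.3 ± 18.9 and 107 ± 21.5 FPKM (log2 change -0.56, limma adjusted p = 0.201), with overlapping groups. Tomm20 of the outer membrane, with a positive log2 change of 0.1, was at 18.03 ± 1.63 and 16.8 ± 1.64 FPKM (adjusted p = 0.742).

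Some of the genes share sequence with others, which makes their levels uncertain. Of the stretches of 50 bases in their transcripts, 41.6% of those of Atp5o, 38.3% of Atp5g2, 26.1% of Cycs, 25.5% of Uqcrb and 22.1% of Cox7c also occur, on either strand, in annotated transcripts of other genes. Atp5o was at 1.005 ± 0.260 and 1.77 ± 0.339 FPKM (adjusted p = 0.0953), below the other peripheral stalk genes. A second protein-coding gene annotated as Atp5o shares 243 exon bases with it on the same strand, so how reads were split between them bears on this level. Among the called genes the share was 11.9% for Cox5b, 6.65% for Cox4i1, 3.04% for Uqcrh and 0.603% for Atp5k, and it was 0 for Cox6b1, Uqcc3 and Uqcrq. Cox4i1 overlaps exons of Emc8 on the opposite strand by 154 bases and Atp5j exons of Gabpa by 397. The sources used here do not say whether counting used strand.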

How the data were processed

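Poly(A) RNA was made into libraries with a marked second strand, per the labels' protocols. The authors deposited FPKM values, 1 column per library, per the file headers; the sources used here name no aligner or counter. The submitters' processing notes name GRCm39, but 31109 of 31253 gene identifiers shared with GENCODE M21 (99.54%) had its GRCm38 coordinates, so positions are given as GRCm38. FPKM times exon length (M21) gave whole reads, within 0.01 of a read, for 99.24% to 99.32% of nonzero values in each library.

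The 12785 genes that reached 1 FPKM in 5 or more libraries entered limma 3.58.1 (R 4.3.3), as log2(FPKM + 1), with its trended prior variance; p-values are two-sided, adjusted by Benjamini-Hochberg over all 12785, with 0.05 as threshold. This scale understates the change of low genes. The fit was tried on simulated data. Alternatives used the same genes, save those on the filter and voom on recovered reads. They covered pseudocounts, filters, scalings, a replicate block, weights, a robust prior, a muscle score and left-out libraries. The genes, lists, muscle-rich libraries and alternatives were chosen with earlier results of these data known. Named genes are those past the threshold, of each group the 3 with the smallest p and the 2 most abundant, the isoform sets, and of each pathway list those past the threshold or else the 2 with the smallest p. Genes named beyond it were chosen after their values were seen: Cyc1, Uqcrfs1, Uqcrc1, Uqcrc2, Uqcrb, Bcs1l, Ttc19, Cox5a, Cox6c, Cox7b, Cox7c, Atp5a1, Atp5j, Atp5l, Atp5md, Atp5mpl, Atp5o, mt-Cytb, mt-Co1, Nrf1, Gabpa, Cs, Tomm20 and Cidea. Of the tested genes of the marker lists, 1 of 3 brown adipocyte genes was called lower, 3 of 8 handling genes higher, and 0 of 6 muscle, 8 white adipocyte, 6 macrophage, 3 B cell, 2 T cell, 6 endothelial and 6 fibroblast genes either way by limma or voom (at an unadjusted p under 0.05, 3 white adipocyte genes lower, 1 higher, and 1 macrophage gene higher); 0 epithelial genes reached the filter. Over all genes tested, 1.42% were called lower and 0.774% higher by limma, and 8.49% had an unadjusted p under 0.05 in the lower direction. Pairs of libraries with identical values numbered 0.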

Additional observations from a re-analysis of the deposited data

Results flagged for a closer look

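In 9 cases, over the 48 genes, Ghr, Cox7a1 and Cox8b, 1 library lay far from the other 4 of its genotype, by a gap over 0.71 of the group's range, where chance flags about 1 in 20 of the 102 groups looked at. In 8 of them this was the muscle-rich Ad-GHRKO 1, as the highest. It held 31.8 FPKM of Atp5g1, against 7.44 in the next Ad-GHRKO library, and 56.8 FPKM of Atp5g2, against 36.9. It held 309 FPKM of Cox6a2, against 9.86, and 60.1 FPKM of Uqcc2, against 38.3. It held 56.5 FPKM of Cox5a, against 21.7, and 106.9 FPKM of Cox7b, against 75.02. Of the muscle isoforms outside the module it held 73.8 FPKM of Cox7a1, against 11.5, and 178 FPKM of Cox8b, against 17.9. In the last case Uqcc3 was lowest in Ad-GHRKO 5, at 26.8 FPKM, against 34.8 FPKM in the next. The share of reads on 26 muscle genes was 18.6% in Ad-GHRKO 1 and 0.241% in Ad-GHRKO 5.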

How the results depend on the processing

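The median log2 change of the tested genes was negative under each of the 24 alternatives, from -0.59 to -0.38, and Ghr kept its call under each. The count of genes that fell, 7 with all libraries, was 1 with no filter, with median ratio scaling and with TPM rescaling, 18 with the muscle score, 28 with array weights, 21 without the 3 muscle-rich libraries and 14 without these and Ad-GHRKO 5. Leaving out 1 library at a time gave 0 to 27. With a replicate block it was 0; the numbers pair nothing in the labels, and same-numbered libraries deviated together in 2 of 5 cases (correlations -0.489, 0.394, -0.0339, 0.28 and -0.259). The cause of these shifts was not tested. TPM rescaling raised the median of all genes to 0.15, and relative to it the respiratory genes were at -0.53, as with all libraries in FPKM. Among the 47 genes and Cox7a1, an uncalled gene changed sign in 12 cases. Uqcc1 was at 0.07 with TPM rescaling, 0.08 with array weights, 0.02 without Ad-GHRKO 5, 0.00 without Flox 2, 0.01 without Flox 5, 0.00 without the 3 muscle-rich libraries and 0.07 without the 4. Cox6b2 was at 0.01 with TPM rescaling and 0.09 without Flox 1, Uqcrc1 at 0.00 with TPM rescaling, Atp5g1 at 0.07 without Flox 5, and Cox7a1 at -0.09 without Ad-GHRKO 1. With 1 library left out at a time they ranged from -0.13 to 0.02 for Uqcc1, -0.18 to -0.05 for Uqcrc1, -0.24 to 0.09 for Cox6b2, -0.55 to 0.07 for Atp5g1 and -0.09 to 0.88 for Cox7a1. Single calls ended without any of 3 libraries for Cox5b (adjusted p up to 0.0699), 7 for Uqcrh (0.0797), 8 each for Uqcc3, Cox4i1 and Atp5k (0.102, 0.129 and 0.115) and 9 each for Uqcrq and Cox6b1 (0.123 and 0.133). Depth limits Cox4i2, Cox6b2 and Atp5o, which have under 100 reads in each library.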

Other observations

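Cox7a1 and Cox8b, isoforms known from muscle and brown fat that were left out of the module, went opposite ways outside the muscle-rich libraries. Cox8b was at 17.9, 6.62, 15.4 and 14.4 FPKM in Ad-GHRKO 2 to 5, against 108, 86.8 and 46.5 FPKM in Flox 1, 2 and 4, so the groups were apart. It was called lower without the 3 muscle-rich libraries (log2 change -2.48, limma adjusted p = 0.0186), but not with all 10 (log2 change -2.02, adjusted p = 0.176). Cox7a1 was at 11.5, 5.64, 9.12 and 8.57 FPKM in Ad-GHRKO 2 to 5, against 2.59, 7.86 and 5.03 FPKM in Flox 1, 2 and 4, and its groups overlapped (log2 change 0.72 without the muscle-rich libraries, adjusted p = 0.202, and 0.51 with all, adjusted p = 0.775). The share of Cox8b in Cox8a and Cox8b together was 1.29% to 3.82% in Ad-GHRKO 2 to 5, against 5.42% to 10.6% in Flox 1, 2 and 4. The share of Cox7a1 in Cox7a1 and Cox7a2 was 6.92% to 10.2% in Ad-GHRKO 2 to 5, against 1.98% to 4.82% in Flox 1, 2 and 4.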
